A study of Mus musculus with 35 samples.

Results

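Tetraspanins are small membrane proteins that cross the membrane repeatedly and carry a small and a large extracellular loop. Their transcripts were followed here in liver macrophages (macs) of mice fed a standard diet (SD) or a western diet (WD). The 9 members were chosen by name: Cd9, Cd63, Cd81, Cd82, Cd37, Cd53, Cd151 and Tspan4, with the pseudogene Cd63-ps as a check on where reads of Cd63 were placed. They were 9 of the 54735 gene symbols in the count files, and all 9 passed the filter on low counts (over 1 CPM, counts scaled to a common library total, in at least 5 libraries) that 13421 symbols passed.

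All libraries came from C57Bl/6J mice. The 35 bulk RNA-seq libraries were of liver macs sorted on CLEC4F, a lectin of Kupffer cells (KCs), and TIM4, a receptor of long-lived resident KCs. Resident KCs (ResKCs, CLEC4F+ TIM4+) were taken after 12 weeks of SD (n = 7), 12 weeks of WD (n = 5), 24 weeks of SD (n = 6) and 24 weeks of WD (n = 6). Monocyte-derived KCs (moKCs, CLEC4F+ TIM4-, n = 5) and CLEC4F- macs (CLEC4F- TIM4-, n = 6) were taken after 24 weeks of WD only, so no SD library of either population was at hand. The WD was rich in fat, sugar and cholesterol. One label field of the 5 WD ResKC libraries at 12 weeks names the SD, whereas title and description give the WD, which was followed.

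Tetraspanins bind one another and partner proteins such as integrins, and so gather them into membrane domains that serve adhesion, migration, membrane fusion and vesicle traffic. CD9 sits mostly at the cell surface, where it restrains the fusion of macs, and is also used as a marker of lipid-associated macs, whereas CD63 sits in late endosomes and lysosomes and is a common marker of exosomes. CD81 is the tetraspanin of the B cell co-receptor and binds the immunoglobulin-family protein IGSF8, CD37 and CD53 are largely restricted to blood cells, CD151 binds laminin-binding integrins, and TSPAN4 takes part in forming migrasomes on the trailing fibres of moving cells.

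The windows of 250 bases before the RefSeq start (GRCm38.p6) are shown for Cd9 and Cd63, the members that were higher on the WD at 24 weeks and in CLEC4F- macs, and for Cd81 and Tspan4, which were lower in CLEC4F- macs. Capitals mark the GC box GGGCGG or the PU.1-type motif GAGGAA, each searched on both strands, so that CCGCCC and TTCCTC are the same motifs read from the other strand. The windows lie at chr6:125494761-125495010 (minus strand) for Cd9, chr10:128909095-128909344 (plus) for Cd63, chr7:143052500-143052749 (plus) for Cd81 and chr7:141474986-141475235 (plus) for Tspan4.
Cd9: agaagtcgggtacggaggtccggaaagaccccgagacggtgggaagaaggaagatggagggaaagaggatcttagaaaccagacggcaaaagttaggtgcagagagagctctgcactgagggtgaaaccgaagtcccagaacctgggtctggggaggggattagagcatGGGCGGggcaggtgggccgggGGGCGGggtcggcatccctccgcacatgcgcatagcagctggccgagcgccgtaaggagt
Cd63: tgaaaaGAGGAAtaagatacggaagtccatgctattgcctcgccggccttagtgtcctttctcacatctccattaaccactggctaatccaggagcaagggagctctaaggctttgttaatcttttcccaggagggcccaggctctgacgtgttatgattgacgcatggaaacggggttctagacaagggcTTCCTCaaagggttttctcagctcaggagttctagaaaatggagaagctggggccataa
Cd81: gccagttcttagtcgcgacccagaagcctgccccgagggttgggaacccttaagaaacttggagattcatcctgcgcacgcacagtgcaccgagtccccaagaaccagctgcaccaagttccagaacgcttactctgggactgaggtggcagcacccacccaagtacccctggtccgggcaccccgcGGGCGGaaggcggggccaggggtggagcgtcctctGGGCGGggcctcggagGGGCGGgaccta
Tspan4: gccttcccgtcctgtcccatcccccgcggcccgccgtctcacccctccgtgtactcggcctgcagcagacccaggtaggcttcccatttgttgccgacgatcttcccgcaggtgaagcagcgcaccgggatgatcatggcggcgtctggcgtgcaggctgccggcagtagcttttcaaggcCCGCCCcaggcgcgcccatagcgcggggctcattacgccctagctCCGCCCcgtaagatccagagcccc

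The GC box was matched 2 times in the Cd9 window, 3 times in that of Cd81, 2 times in that of Tspan4 and 0 times in that of Cd63, and 32.7% of the 32851 windows in the table held it. The Cd63 window held GAGGAA 2 times, a motif in 23.3% of windows, and the other three windows shown held it 0 times. Neither the E-box CACGTG (6.02% of windows) nor the AP-1 motif TGANTCA (6.75%) was found in any of the windows shown. GC content was 61.6% for Cd9, 48.8% for Cd63, 65.6% for Cd81 and 68% for Tspan4, against a median of 52.4% over the table. Cd9 and Cd63, whose levels moved together below, thus had windows that differed in GC content and in both motifs. The Cd63 window lies inside the GENCODE span of its gene (chr10:128900989-128912822), while those of Cd9, Cd81 and Tspan4 lie at the GENCODE gene start. The windows are thus not at like positions, and a match is a description of letters and not of a binding site.

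Depth was 11568590 to 15163845 counts per library. Clec4f, the gene of the sorted protein, was at 11174 to 17495 CPM in ResKCs and 7326 to 11619 CPM in moKCs, and still at 294 to 5488 CPM in CLEC4F- macs. CLEC4F- mac replicate 4 stood apart, with a summed level of 7 KC markers of 12907 CPM against 1672 to 6102 CPM in the other CLEC4F- mac libraries and a summed level of 5 recruited mac markers (Ccr2, Ly6c2, Chil3, Spp1, Itgax) of 614 CPM against 1280 to 1853 CPM. moKC replicate 1 had a summed recruited-marker level of 37.1 CPM, the lowest of the moKCs, whose highest was 172 CPM. SD ResKC replicates 4 and 7 at 12 weeks had the highest summed hepatocyte markers of their group (1733 and 3313 CPM, lowest of the group 330 CPM) and the lowest summed immediate-early and heat-shock genes (3672 and 1384 CPM, highest 14577 CPM). Alignment names in the file headers followed 1 of 2 naming schemes, used for 22 libraries (the larger header set) and 13 libraries (the smaller header set). The larger set held all 6 SD ResKC libraries at 24 weeks and all 5 WD ResKC libraries at 12 weeks. The smaller set held 4 of the 7 SD ResKC libraries at 12 weeks and 3 of the 6 WD ResKC libraries at 24 weeks. It also held 3 of the 5 moKC and 3 of the 6 CLEC4F- mac libraries. Header set and diet were thus partly mixed in both diet comparisons, and neither could be made within the smaller set.

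Divided by the length of their exons, Cd53 and Cd81 were the most abundant members in every group, while the places of the others changed between groups. The length joined all annotated exons of a gene, 1742 bases for Cd53 (1 transcript) and 3682 bases for Cd63 (6 transcripts). The places therefore depend on which transcripts are annotated, and they include Cd63-ps. The median level of Cd53 was 475 to 625 CPM per kb over the 6 groups and that of Cd81 307 to 642 CPM per kb. Cd9 went from 6.48 CPM per kb in SD ResKCs at 12 weeks, place 6 of 9, to 158 CPM per kb in CLEC4F- macs, place 3. Cd63 went from 0.791 CPM per kb, place 9 and just under Cd63-ps (0.860 CPM per kb), to 103 CPM per kb, place 4. Cd37 went the other way, from place 4 (31.3 CPM per kb) to place 8 (16.6 CPM per kb). Over the 35 libraries the highest CPM was 198 times the lowest for Cd63, 45.2 times for Cd9, 6.43 times for Tspan4, 4.56 times for Cd81 and 1.69 times for Cd53. The summed CPM of the 8 members without the pseudogene had group medians between 2592 CPM in CLEC4F- macs and 3426 CPM in SD ResKCs at 24 weeks.

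**Figure D1:**
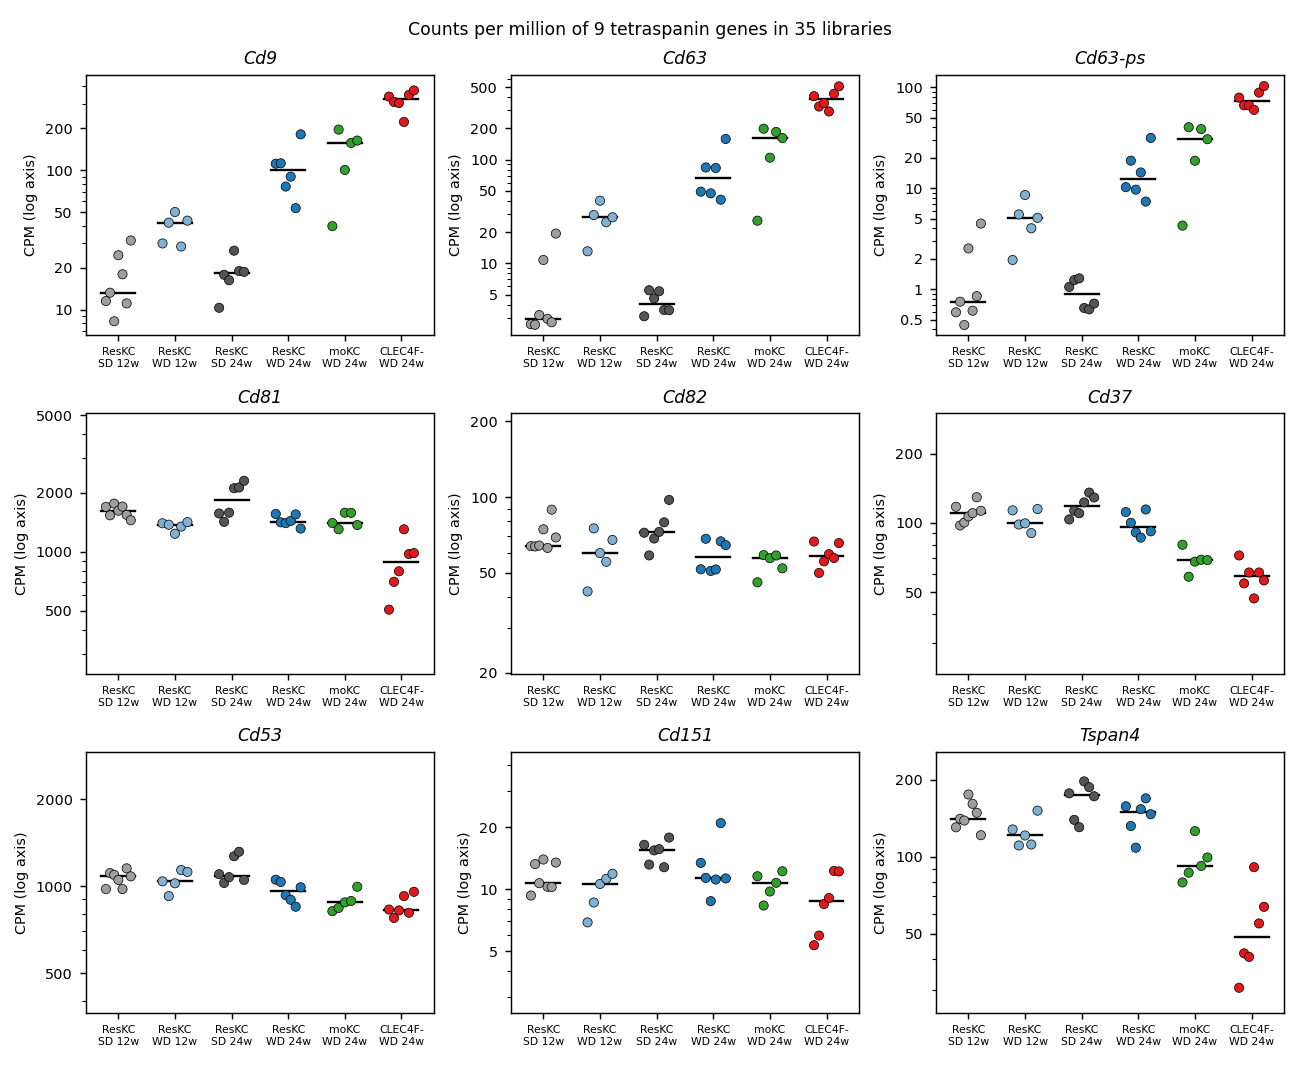
CPM of the 9 members (log axis, 1 panel per gene with its own range) in each of the 35 libraries, by group. Cd9, Cd63 and Cd63-ps climb from the SD ResKCs to the CLEC4F- macs (Cd63 2.56 to 507 CPM), while Cd53 stays between 777 and 1316 CPM.

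The WD at 24 weeks answers what the diet did to ResKCs at the later time. Cd9, Cd63 and the pseudogene Cd63-ps were higher and lay above every SD library, and of the other 6 members only Cd53 passed the test, with a small decrease. Cd9 in SD ResKCs had a lowest level of 10.3, a median of 18.2 and a highest of 26.5 CPM, and in WD ResKCs 53.5, 101 and 181 CPM. The lowest WD library was thus above the highest SD library, and the fitted change was 5.76-fold (log2 fold change 2.53 ± 0.32 SE, adjusted p = 6.17e-06, edgeR quasi-likelihood test, Benjamini-Hochberg over 13421 genes, as for every adjusted p of that test below). In bulk libraries a higher share of cells with a transcript and more of it per cell cannot be told apart.

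Cd63 was at 3.09, 4.07 and 5.50 CPM (lowest, median, highest) in SD ResKCs at 24 weeks, 44 to 76 counts per library, and at 41.0, 66.0 and 158 CPM in WD ResKCs. The groups did not overlap, and Cd63 was 18.0-fold higher on the WD (log2 fold change 4.17 ± 0.49, adjusted p = 2.93e-06). Cd63-ps rose with it (4.02 ± 0.52, adjusted p = 7.25e-06). These 3 members were called higher, against 4.84% of all genes tested, and all 3 did not overlap in that direction, against 2.19%. Cd63-ps is a check on read placement and held a steady share of the Cd63 counts (below). Without it, 2 of 8 members were called higher. WD replicate 6 had the highest Cd9 and Cd63, and WD replicate 5 the lowest.

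Among the other members at 24 weeks, Cd53, which stabilises the homing receptor L-selectin on lymphocytes, fell by 0.25 on the log2 scale (SE 0.07, adjusted p = 0.0274), 1 member called lower against 3.87% of genes. Its range was 1027 to 1316 CPM in SD and 850 to 1054 CPM in WD ResKCs, so the groups overlapped. The call was lost without SD replicate 4 (adjusted p = 0.0746) or 5 (0.0791), without WD replicate 3 (0.0547), 4 (0.0637) or 5 (0.0618), and within the larger header set (0.253). It was also lost with library size alone as the scaling (adjusted p = 0.0665), with no filter (0.0639), in a fit of the compared groups alone (0.0623) and with the immediate-early covariate (0.0603). Cd81 (log2 fold change -0.36 ± 0.13, adjusted p = 0.0904), Cd82 (-0.35 ± 0.12, 0.0667) and Cd37 (-0.26 ± 0.09, 0.0717) did not pass, nor did Cd151 (-0.25 ± 0.19, 0.442) or Tspan4 (-0.21 ± 0.17, 0.463). Cd82 passed without SD replicate 2 (adjusted p = 0.0409) and Cd37 without WD replicate 5 (0.0417). Of 12 alternative settings of the processing, Cd82 passed in 2, Cd81 and Cd37 in 1 each, and Cd151 and Tspan4 in 0. The median log2 fold change of the 9 members was -0.25, beside 0.0037 over all genes tested.

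Other transcripts also moved with the diet at 24 weeks. The summed recruited-marker level was 7.00 to 18.7 CPM in SD and 35.8 to 121 CPM in WD ResKCs, with 2 of 5 genes called higher. The immediate-early and heat-shock genes were lower in WD ResKCs for 7 of 10, with summed levels of 2587 to 13824 CPM against 1050 to 4945 CPM. The part of either list in the Cd9 and Cd63 differences was not tested, beyond a fit with the immediate-early list as a covariate, in which both were still called.

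At 12 weeks the same diet comparison gave 0 members called by edgeR, against 0.0373% of genes, while DESeq2 called 2 and limma-voom 0. By edgeR, 3 of 9 members had an unadjusted p under 0.05 (8.73% of genes), or 2 of 8 without Cd63-ps. Cd9 was at 8.26, 13.2 and 31.3 CPM (lowest, median, highest) in SD ResKCs. In the 5 WD libraries it was at 29.9, 42.0, 50.2, 28.4 and 43.5 CPM. Only the highest SD library, replicate 7, reached into the WD range, and the log2 fold change was 1.20 ± 0.31 (adjusted p = 0.148).

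Cd63 at 12 weeks was at 2.56, 2.91 and 19.4 CPM in SD ResKCs and at 13.1, 29.2, 40.1, 24.9 and 27.8 CPM in the 5 WD libraries. SD replicates 7 and 4 were the highest of their group (19.4 and 10.8 CPM), the other 5 were at 2.56 to 3.17 CPM, and only replicate 7 overlapped the WD range. The log2 fold change was 2.09 ± 0.45 (adjusted p = 0.0859), and that of Cd63-ps 1.76 ± 0.49 (0.219). Without SD replicate 7 these 3 members were called, Cd9 at 1.42 ± 0.31 (adjusted p = 0.0209), Cd63 at 2.70 ± 0.43 (0.00148) and Cd63-ps at 2.36 ± 0.49 (0.0171), whereas without SD replicate 4 none was (0.155, 0.121 and 0.206). Replicate 7 also had the highest summed recruited markers of the SD group, 23.8 CPM against 9.37 to 13.6 CPM, and the part of these in its Cd63 level was not tested. Within the larger header set, Cd63 was higher by 3.28 ± 0.52 (adjusted p = 0.0169).

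Cd81 was lower in each of the 5 WD ResKC libraries at 12 weeks (1237 to 1419 CPM) than in any of the 7 SD libraries (1450 to 1764 CPM), a non-overlap seen in that direction in 0.216% of genes. Its log2 fold change was small and did not pass the test (-0.25 ± 0.14, adjusted p = 0.623). The remaining members, Cd82, Cd37, Cd53, Cd151 and Tspan4, had log2 fold changes between -0.24 and -0.020, with adjusted p from 0.649 to 0.960.

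Time on the diet was compared within each diet, with comparisons that share libraries with those above. On the SD, 0 members were called between 24 and 12 weeks by edgeR, DESeq2 or limma-voom, as were 0% of all genes by edgeR, and 1 member, Cd151, had an unadjusted p under 0.05 (log2 fold change 0.39 ± 0.18, adjusted p = 0.516), against 9% of genes. On the WD, Cd9 was higher at 24 weeks (log2 fold change 1.42 ± 0.33, adjusted p = 0.0173), with its lowest 24-week library (53.5 CPM) above its highest 12-week library (50.2 CPM). In all 2 members, Cd9 and Cd63-ps, were called higher, against 1.53% of genes, or 1 of 8 without Cd63-ps. The call of Cd9 was lost within the larger header set (adjusted p = 0.0771). Cd63 did not overlap between the times either, but missed the threshold (1.51 ± 0.45, adjusted p = 0.0569) and passed without WD replicate 5 at 24 weeks (0.0400). Non-overlap in this direction, seen in 2 members, Cd9 and Cd63, was found in 1.68% of all genes.

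Cd63-ps was called higher on the WD at 24 weeks than at 12 weeks just under the threshold (1.60 ± 0.46, adjusted p = 0.0488). That call was lost when any of 12-week replicates 1, 2, 4 and 5 or 24-week replicates 1, 2, 4 and 6 was left out (adjusted p up to 0.142, without 24-week replicate 6). It held in only 3 of 11 alternative settings of the processing. The difference between the diet effects at 24 and 12 weeks was tested directly, and 0 members passed by edgeR, DESeq2 or limma-voom, against 0.283% of genes by edgeR. At an unadjusted p under 0.05 there were 4 members (14.1% of genes), or 3 of 8 without Cd63-ps. Cd9 was at 1.32 ± 0.44 (adjusted p = 0.159) and Cd63 at 2.08 ± 0.66 (0.134). A larger effect of the diet at 24 than at 12 weeks was therefore not shown for any member.

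**Figure D2:**
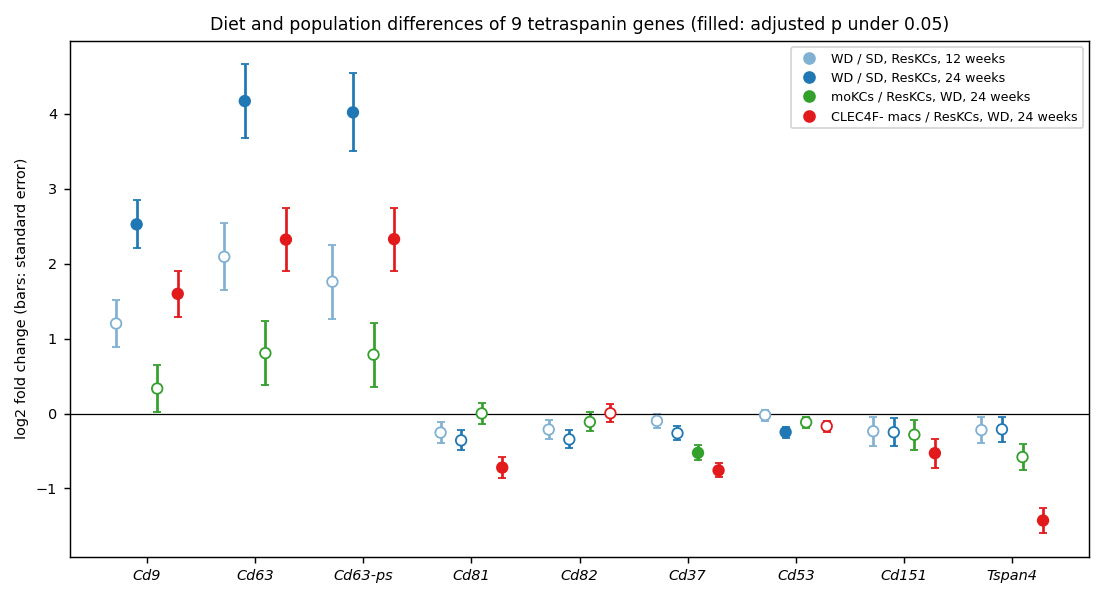
Log2 fold changes of the 9 members with their standard errors in the diet comparisons of ResKCs and the population comparisons on the WD at 24 weeks, which share the WD ResKC libraries at 24 weeks. Filled points passed an adjusted p of 0.05, and Cd63 on the WD at 24 weeks was highest at 4.17 ± 0.49.

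CLEC4F- macs were compared with ResKCs of the same diet and time to ask how the recruited macs outside the KC pool differ from the resident cells. Cd9 and Cd63 were higher in them by 3.03-fold and 5.00-fold, and Tspan4, Cd37, Cd81 and Cd151 were lower. Cd9 in CLEC4F- macs had a lowest level of 222, a median of 323 and a highest of 373 CPM, all above the WD ResKC range of 53.5 to 181 CPM (log2 fold change 1.60 ± 0.30, adjusted p = 8.71e-05). Cd63 was at 291, 379 and 507 CPM, all above the 41.0 to 158 CPM of the ResKCs (2.32 ± 0.43, adjusted p = 5.31e-05). Cd63-ps was higher as well (2.33 ± 0.42, adjusted p = 4.58e-05). Members called higher were thus 3 of 9, against 16.1% of genes, all 3 without overlap, against 7.18%. Leaving out Cd63-ps, 2 of 8 were called higher.

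Tspan4, the migrasome tetraspanin, had the largest decrease of the members. It was at 30.7, 48.4 and 91.1 CPM in CLEC4F- macs and at 109, 150 and 169 CPM in WD ResKCs, and fell by 1.43 on the log2 scale (SE 0.17, adjusted p = 5.49e-08) without overlap. Cd37, which restrains signalling of the fungal receptor Dectin-1 (Clec7a), was at 46.9, 58.5 and 72.1 CPM against 86.2, 96.0 and 114 CPM, and fell by 0.76 (SE 0.09, adjusted p = 1.03e-07) without overlap. Cd81 was at 506, 885 and 1303 CPM against 1314, 1427 and 1562 CPM, and fell by 0.72 (SE 0.14, adjusted p = 7.29e-05). The groups of Cd81 did not overlap, but the highest CLEC4F- mac library (replicate 4, 1303 CPM) lay just under the lowest ResKC library.

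The 4 members called lower compare with 17% of genes, and the 3 without overlap with 8.81%. The least firm of them was Cd151 (log2 fold change -0.53 ± 0.19, adjusted p = 0.0312), whose 5.34 to 12.3 CPM overlapped the 8.75 to 21.0 CPM of the ResKCs. It was no longer called without ResKC replicate 1 (adjusted p = 0.0522) or 5 (0.166), without CLEC4F- mac replicate 1 (0.111), 2 (0.0994) or 3 (0.0545), or with library size alone as the scaling (0.0824), which moved the median of all genes from 0.023 to 0.14. The call was also lost in a fit of the compared groups alone (-0.51 ± 0.25, adjusted p = 0.142) and within the smaller header set (-0.37 ± 0.25, 0.394), and held within the larger (-0.75 ± 0.23, 0.0193). Cd82, known as a suppressor of cell migration, had a log2 fold change of 0.0036 ± 0.12 (adjusted p = 0.987). Cd53 had one of -0.17 ± 0.07 (0.0704), which passed without ResKC replicate 5 (0.0351) or without CLEC4F- mac replicate 4 (0.0441) or 6 (0.0334).

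CLEC4F- mac replicate 4, the library with the most KC marker transcripts, was also the one with the lowest Cd9 and Cd63 and the highest Cd81 and Tspan4 of its group. Without it Cd9 was at 1.68 ± 0.31, Cd63 at 2.39 ± 0.44, Cd81 at -0.87 ± 0.12 and Tspan4 at -1.64 ± 0.15, all still called (adjusted p from 3.07e-10 to 6.52e-05). Within CLEC4F- macs, replicates 1 to 3, in the larger header set, were all lower than replicates 4 to 6, in the smaller header set, for Cd81, Tspan4 and Cd151. Against ResKCs, Cd81 was at -1.11 ± 0.17 (adjusted p = 4.81e-05) within the larger header set and at -0.40 ± 0.12 (0.0408) within the smaller header set, and Tspan4 at -1.80 ± 0.17 (1.78e-07) and -1.16 ± 0.18 (0.00147). All 7 KC markers were lower in CLEC4F- macs (summed level 1672 to 12907 CPM against 25657 to 31512 CPM), and all 5 recruited markers were higher. The B cell list was higher for 5 of 5 genes (28.8 to 172 CPM summed, against 10.3 to 28.5 CPM) and the dendritic cell list for 2 of 5 (21.2 to 172 CPM against 10.1 to 20.9 CPM). Platelets also carry CD9 and CD63, and all 3 platelet markers tested, of 7, were called higher (summed level of the 7 at 95.2 to 178 CPM against 16.8 to 100 CPM). Most of that sum was Pf4, at 91.5 to 175 CPM in CLEC4F- macs. Itga2b and Ppbp were at or under 2.19 CPM there, Gp9, Gp1ba and Gp5 at or under 0.292 CPM and Gp1bb at 0. Markers of T and NK cells were higher for 2 of 2 tested and those of stellate cells for 3 of 6. Of the 5 cholangiocyte markers 2 were tested, and the 1 called higher was Spp1, which is also on the recruited list. The cholangiocyte markers Epcam, Krt19 and Krt7 did not pass the filter and reached at most 1.94, 1.53 and 1.18 CPM in any library. The part of any of these cells in the tetraspanin differences was not tested.

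moKCs were compared with ResKCs to ask whether KCs of monocyte origin differ from resident ones. In this test 1 member passed, Cd37, which was lower. It was at 80.3, 58.3, 67.8, 69.1 and 68.9 CPM in moKCs and at 86.2 CPM or more in every WD ResKC library (log2 fold change -0.52 ± 0.10, adjusted p = 0.00151), 1 member called lower against 2% of genes and 1 without overlap against 2.17%. The decrease was close in size within the larger header set (-0.54 ± 0.16) and the smaller header set (-0.51 ± 0.12), where with fewer libraries it did not pass (adjusted p = 0.150 and 0.115). Tspan4 was at 79.4, 86.7, 126, 92.2 and 99.4 CPM, mostly under the ResKC range but overlapping it, with a log2 fold change of -0.58 ± 0.18 (adjusted p = 0.0668) that passed without ResKC replicate 3 (0.0416) or moKC replicate 3 (0.0372).

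Cd9 in moKCs was at 39.7, 195, 100, 157 and 163 CPM and Cd63 at 25.8, 198, 104, 185 and 161 CPM. Replicate 1, the library with the fewest recruited-marker transcripts, was the lowest for both and lay under every ResKC library, while the other 4 lay inside or above the ResKC range. The log2 fold changes were 0.33 ± 0.31 for Cd9 (adjusted p = 0.673) and 0.81 ± 0.43 for Cd63 (0.360). Without replicate 1 they were 0.57 ± 0.29 (0.315) and 1.07 ± 0.40 (0.133), and Cd37 was at -0.59 ± 0.10 (0.000482). Cd81 had a log2 fold change of 0.0014 ± 0.14 (adjusted p = 0.998).

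Between the recruited populations, Cd9 was 2.40-fold and Cd63 2.86-fold higher in CLEC4F- macs than in moKCs, and Cd81 and Tspan4 were lower. The log2 fold changes were 1.26 ± 0.32 for Cd9 (adjusted p = 0.00483), 1.52 ± 0.44 for Cd63 (0.0144) and 1.54 ± 0.44 for Cd63-ps (0.0117), each without overlap. These 3 called higher compare with 7.09% of genes and the 3 without overlap with 3.96%. Leaving out Cd63-ps, 2 of 8 members were called higher. Cd81 fell by 0.72 (SE 0.14, adjusted p = 0.000315) and Tspan4 by 0.85 (SE 0.18, 0.000700), 2 called lower against 9.34% of genes, with 1, Cd81, without overlap against 4.2%. Cd37 was at -0.23 ± 0.10 (adjusted p = 0.107). Without moKC replicate 1 the 5 calls held, with Cd63 at 1.25 ± 0.42 (0.0434), and without CLEC4F- mac replicate 4 they held as well (Cd63 1.58 ± 0.46, 0.0119). Within the smaller header set 0 members passed by edgeR, among 3 libraries of each population, with log2 fold changes of 1.16 for Cd9 (adjusted p = 0.179), 1.45 for Cd63 (0.253), -0.48 for Cd81 (0.0527) and -0.60 for Tspan4 (0.119).

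In the order of mean level, Cd9 stood at 315 ± 52.3 CPM (standard deviation over libraries) in CLEC4F- macs, 131 ± 61.5 CPM in moKCs, 104 ± 43.6 CPM in WD ResKCs at 24 weeks, 38.8 ± 9.36 CPM in WD ResKCs at 12 weeks, 18.1 ± 5.21 CPM in SD ResKCs at 24 weeks and 16.9 ± 8.35 CPM in SD ResKCs at 12 weeks. Of these neighbours, moKCs and WD ResKCs at 24 weeks were not distinguished, nor were the SD groups (adjusted p = 0.948), nor WD ResKCs at 12 weeks and SD ResKCs at 24 weeks, although the last did not overlap (0.125). Cd63 had the same order except that the SD groups changed places, and among its neighbours only CLEC4F- macs and moKCs passed the test. For Cd81 the order ran from 1855 ± 371 CPM in SD ResKCs at 24 weeks to 878 ± 275 CPM in CLEC4F- macs, and only the last step, from WD ResKCs at 12 weeks (1355 ± 71.4 CPM), passed (adjusted p = 0.000660). No neighbours passed for Cd82, Cd53 or Cd151, whose group means were 54.4 to 74.7 CPM, 854 to 1140 CPM and 8.88 to 15.2 CPM.

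The levels of Cd9 and Cd63 followed each other from library to library. Over the 35 libraries Pearson's r of log2 CPM was 0.98, and 0.87 after each library was taken as its deviation from its group mean. For Cd81 and Tspan4 the values were 0.91 and 0.79, and for Cd9 and Cd81 -0.70 and -0.11. These are descriptions over libraries that share groups, depth and processing.

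**Figure D3:**
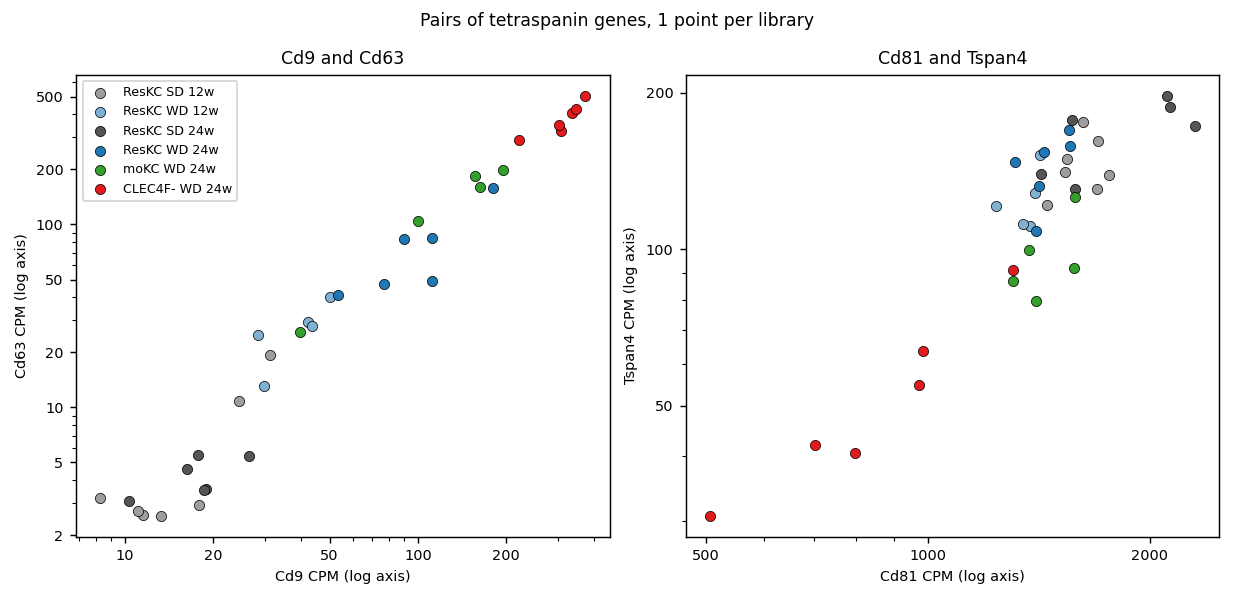
CPM of Cd63 against Cd9 (left) and of Tspan4 against Cd81 (right), both on log axes, 1 point per library and coloured by group. Cd63 and Cd9 form 1 band over all groups (r = 0.98), and the CLEC4F- macs lie lowest for Tspan4 and Cd81 except replicate 4, at 1303 CPM of Cd81 and 91.1 CPM of Tspan4.

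The genes whose log2 CPM was most like that of Cd9 over the 35 libraries, members aside, were Ccl9, a chemokine of macs (r = 0.980), Gla, the lysosomal alpha-galactosidase (0.971), and Gpnmb, a glycoprotein of lipid-laden macs (0.968). Those most like Cd63 were Gpnmb (0.983), Ccl9 (0.971) and Fam20c, a kinase of secreted proteins (0.968). Gpnmb went from 2.17 ± 1.11 CPM in SD ResKCs at 24 weeks to 191 ± 168 CPM in WD ResKCs and 1267 ± 315 CPM in CLEC4F- macs. Those most like Cd81 were C1qc, a chain of complement C1q (0.922), Slc40a1, the iron exporter (0.922), and Ctsf, a lysosomal protease (0.920). By Spearman's rho the 3 for Cd81 were Atp6ap1, Tsc22d3 and Serinc3, and for Cd63 the pseudogene Cd9-ps took the place of Fam20c, so those names depend on the measure.

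Cd63-ps, a processed pseudogene on chromosome 18, took a steady share of the reads. It held 10028 of the 60568 counts of Cd63 and Cd63-ps together, 16.6% (95% exact binomial interval 16.3 to 16.9%, for counting error only). The share was 15.7 to 18.9% by group, although the summed counts of both genes went from 416 over the 6 SD ResKC libraries at 24 weeks to 39318 over the 6 CLEC4F- mac libraries, and the interval of each of the 35 libraries held the pooled share. The aligned pseudogene and Cd63 transcripts had 14 mismatches and 0 gaps in 849 bases (98.4% identity), and 268 of the 801 stretches of 75 bases in the pseudogene (33.5%) also occurred in Cd63 transcripts. Counts of the pseudogene are therefore uncertain, and with them added to Cd63 every comparison kept its call of Cd63. Cd9-ps, a processed pseudogene of Cd9 looked at after its values were seen, shared 0 of 576 such stretches with Cd9 (94.8% identity) and held 607 counts against 49444 of Cd9, 1.21% (1.12 to 1.31%).

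**Figure D4:**
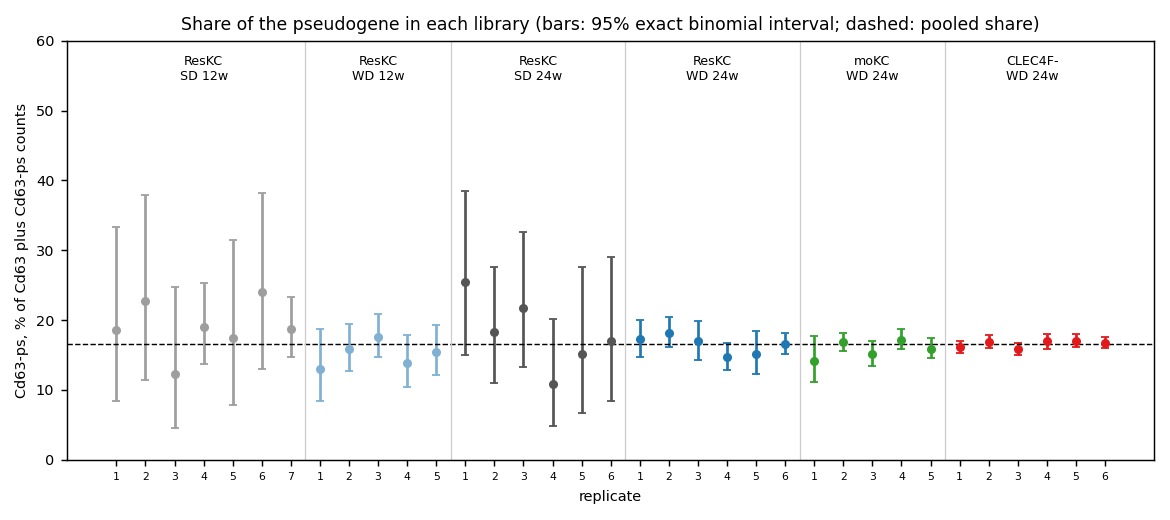
Cd63-ps as a percentage of the counts of Cd63 and Cd63-ps in each library, in order of group and replicate, with 95% exact binomial intervals and the pooled share of 16.6% as a dashed line. Every interval crosses the line, and the SD ResKCs, with the fewest counts, have the widest.

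Of 23 other tetraspanins, 15 passed the filter. In CLEC4F- macs against ResKCs 4 of the 15 were higher, against 16.1% of all genes, and 3 were lower, against 17%, with 8 not called. Tspan33 (3.78 ± 0.52, adjusted p = 5.65e-07) and Tspan5 (2.60 ± 0.41, 7.19e-06) are of the TspanC8 group, which escorts the protease ADAM10 to the surface, and were higher, as were Tspan13 (1.78 ± 0.29) and Tspan32 (1.78 ± 0.30). Tspan15 (-1.75 ± 0.23) and Tspan17 (-0.81 ± 0.14), also of that group, were lower, and so was Tspan9 (-2.09 ± 0.24, adjusted p = 1.57e-08). The fifth TspanC8 gene tested, Tspan14, was not called, so the group split into 2 higher and 2 lower of 5.

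Against moKCs, the CLEC4F- macs were higher for Tspan5, Tspan13, Tspan33 and Rom1 (1.15 ± 0.26) and lower for Tspan9, Tspan15 and Tspan17, 4 of 15 against 7.09% of genes and 3 of 15 against 9.34%. In moKCs against ResKCs, Tspan32 was higher (1.64 ± 0.31, adjusted p = 0.00157) and Tspan9 lower (-0.97 ± 0.24, 0.0176), 1 of 15 each against 0.991% and 2% of genes. The diet at 24 weeks gave 1 call of 15, Tspan17 (-0.48 ± 0.13, adjusted p = 0.0224), which was lower, as were 3.87% of genes. At 12 weeks edgeR gave 0 calls of 15, against 0.0373% of genes, and 0 at an unadjusted p under 0.05, against 8.73%.

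Of 17 partner proteins of tetraspanins, 15 were tested, and on the WD at 24 weeks 3 of the 15 were higher, against 4.84% of genes, and 1 was lower, against 3.87%, in ResKCs. Itga6, the laminin-binding integrin subunit, rose from a mean of 4.46 to 22.6 CPM (2.34 ± 0.44, adjusted p = 0.000872). Cd36, a scavenger receptor for oxidised lipid, rose by 1.19 ± 0.17 (4.08e-05) and Clec7a, Dectin-1, by 0.66 ± 0.20 (0.0310), while Hbegf, a growth factor precursor that CD9 binds, fell by 1.17 (SE 0.35, 0.0338). In CLEC4F- macs against ResKCs 3 of the 15 were higher, against 16.1% of genes, and 8 lower, against 17%. The 4 with the largest change were Itga6 at 1.47 ± 0.41 (adjusted p = 0.00490), Clec7a at 1.07 ± 0.20 (6.40e-05), Itga4, an integrin subunit of monocytes, at 0.92 ± 0.14 (5.91e-06) and Hbegf at -1.17 ± 0.36 (0.0120). The other partners called were all lower.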

How the data were processed

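Reads of 35 bulk RNA-seq libraries of sorted C57Bl/6J liver macs were processed by the authors, whose notes name FastQC 0.11.9, HISAT2 2.2.0, SAMtools 1.10, featureCounts 2.0.0 and the build mm10. Which annotation was counted, whether strand was used and how multi-mapping reads were treated is not given in the sources used here. The authors deposited raw whole-number counts for each symbol, unfiltered and unscaled, 1 file per library.

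Libraries were grouped by the titles and descriptions. Genes over 1 CPM in at least 5 libraries were tested in 1 fit of 6 group means with edgeR 4.0.16 (R 4.3.3, TMM scaling, quasi-likelihood test), with Benjamini-Hochberg adjustment over all 13421 genes and calls at an adjusted p under 0.05. The edgeR test stands in place of limma, the tool of the study's methods, since the values are counts, and was tested on simulated data. Log2 CPM used a prior count of 2. The labels do not say which libraries came from separate animals, so p-values measure the spread between these libraries, and every pair of libraries within a group differed beyond sampling noise. Deviations from the group means were correlated over genes between same-numbered replicates, and in no comparison were all pairs over 0.1. In CLEC4F- macs against ResKCs all pairs were above 0 (0.024 to 0.263), with 4 of 6 over 0.1. On the WD at 24 against 12 weeks they were at 0.039 to 0.256, with 2 of 5 over 0.1. The numbers were not used as pairs in the main fit, and whether same-numbered libraries share an animal is not known. Totals of 11568590 to 15163845 counts per library set the precision, and a gene with 0 counts could still have had up to 3.

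The members, the lists of other tetraspanins and partners and the marker lists were chosen with earlier results of these data known. Named were all 9 members, the other tetraspanins called in a diet or population comparison, the 4 partners with the largest change among those called, and the 3 genes most correlated with Cd9, Cd63 and Cd81. Exon lengths and gene types came from GENCODE M21 (GRCm38) and promoter windows from RefSeq (GRCm38.p6), with a window for 8 members. Alternatives were library size scaling, DESeq2 1.42.0, limma-voom 3.58.1, no filter, robust dispersion, only the groups compared, a fold limit, the replicate block, hepatocyte, immediate-early and header name covariates, Cd63-ps added to Cd63, and each replicate left out. Fits within header names and the check of Cd9-ps were chosen after seeing the data.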

Additional observations from a re-analysis of the deposited data

How the results depend on the processing

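The number of members called, which counts Cd63-ps where it was fitted, changed by over 1.5 times as follows. For the WD against SD at 12 weeks it was 0, but 2 with DESeq2, 3 with the replicate block, 1 with the immediate-early covariate, 1 with the header name covariate, 1 within the larger header set and 0 to 3 when 1 replicate was left out. For CLEC4F- macs against ResKCs it was 7, but 4 with a log2 fold limit of 1. For moKCs against ResKCs it was 1, but 0 with that limit, 2 with DESeq2, limma-voom, the compared groups alone or the header name covariate, 0 within either header set and 1 to 2 when 1 replicate was left out. For CLEC4F- macs against moKCs it was 5, but 3 with the limit and 0 within the smaller header set. For the WD at 24 against 12 weeks it was 2, but 1 with limma-voom, no filter, robust dispersion, either the immediate-early or header name covariate, or Cd63-ps added to Cd63, 0 within the larger header set and 1 to 3 when 1 replicate was left out. The labels do not say whether same-numbered libraries share an animal, so the replicate block cannot be read as a pairing of animals. For the WD against SD at 24 weeks the block gave 6 called against 4.

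The values that changed sign belong to members that were not called. At 12 weeks, Tspan4 was 0.0023 with the header name covariate. In CLEC4F- macs against ResKCs, Cd82 was -0.016 without a filter and -0.0025 within the smaller header set. In moKCs against ResKCs, Cd81 was -0.00043 with limma-voom, -0.0024 without a filter, -0.0068 with the compared groups alone, -0.0053, -0.011 and -0.022 with the hepatocyte, immediate-early and header name covariates and -0.10 within the larger header set, and Cd53 was 0.013 within the smaller header set. In CLEC4F- macs against moKCs, Cd53 was 0.032 by library size and Cd151 0.035 within the smaller header set. On the SD over time, Cd63 was 0.093 with the replicate block and 0.62 within the larger header set, and Cd63-ps 0.64. In the difference of diet effects, Cd151 was 0.040 by library size, 0.0061 with the compared groups alone and 0.021 with the immediate-early covariate, and Tspan4 -0.071 and -0.41 with the immediate-early and header name covariates and -0.20 within the larger header set.

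With 1 replicate left out, Cd53 at 12 weeks ran from -0.051 to 0.022, Cd82 in CLEC4F- macs against ResKCs from -0.035 to 0.059, Cd81 in moKCs against ResKCs from -0.033 to 0.037, Cd9 and Cd63 on the SD over time from -0.041 to 0.32 and from -0.70 to 0.043, Cd82 on the WD over time from -0.13 to 0.067, and Cd151 and Tspan4 in the difference of diet effects from -0.21 to 0.076 and from -0.052 to 0.090. The cause of these changes was not tested. The calls of Cd9, Cd63 and Cd63-ps on the WD at 24 weeks and in CLEC4F- macs against ResKCs, and of Cd81, Cd37 and Tspan4 in the latter, held in every alternative run with no fold limit. Depth limits Cd63 and Cd63-ps in SD ResKCs most, with 34 to 273 and 6 to 63 counts per library.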
